A study of Egretta garzetta and Nycticorax nycticorax with 12 samples.

Results

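The OR14 receptor genes of the little egret, *Egretta garzetta*, were the genes that the supplementary table of olfactory receptors (ORs) of the study assigns to family OR14. They were 98 genes without a partial mark, called intact here, and 27 partial genes. Together they were all but 7 of the 132 OR genes listed for this species, out of its 16585 gene models. Each was found by identifier in the files of every bird. The table holds OR genes chosen for their expression in these libraries, so detection in some bird was part of the choice and is not a result. RNA was taken from the olfactory epithelium (OE) of 3 nestlings (birds 1 to 3) and 3 adults (birds 4 to 6) of *E. garzetta*, with 1 library per bird, and the study also sequenced 6 night herons that are not used here. The nestlings were small birds whose olfactory bulbs had not developed, each from another nest, and the adults were birds in breeding plumage with full-sized bulbs, caught at another location, so stage and location cannot be told apart. None of the birds had been treated, and their sex was not given in the sources used here.

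ORs are G protein-coupled receptors that sit in the cilia of olfactory sensory neurons and bind odorants. In mammals each mature neuron uses a single OR gene, so every gene is active in a small part of the neurons and its level in whole OE is low. OR coding regions usually lie on a single exon, and the genes stand in tandem arrays that arise by duplication. OR14 belongs to the class II receptors and is the family that is expanded in many birds. Its members are alike in sequence, and reads shared between them make the level of a single member uncertain. The ligands of most of these receptors are not known.

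OR14 transcripts differed more between birds of the same stage than between the stages. The gene models with a value above 0 transcripts per 1000000 (TPM), called detected here, numbered 37, 6 and 106 in nestlings 1, 2 and 3. In adults 4, 5 and 6 they numbered 83, 0 and 82. One nestling and 2 adults were therefore high, nestling 1 was intermediate, and nestling 2 and adult 5 had few or none. The mean over all OR14 genes, those at 0 included, was 0.0532, 0.00687 and 0.374 TPM in nestlings 1, 2 and 3. In adults 4, 5 and 6 this mean was 0.238, 0 and 0.219 TPM. The stages overlapped in both measures. The nestlings averaged 0.145 ± 0.200 TPM (SD, n = 3) and the adults 0.152 ± 0.132 TPM (SD, n = 3). The number detected was 49.7 ± 51.2 genes (SD, n = 3) in nestlings and 55 ± 47.6 genes (SD, n = 3) in adults. The direction of both differences turned with single birds: without adult 5 the adults lay above the nestlings by 32.8 detected genes and 0.0840 TPM, whereas without nestling 2 the nestlings lay above the adults by 16.5 genes and 0.0610 TPM.

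**Figure D1:**
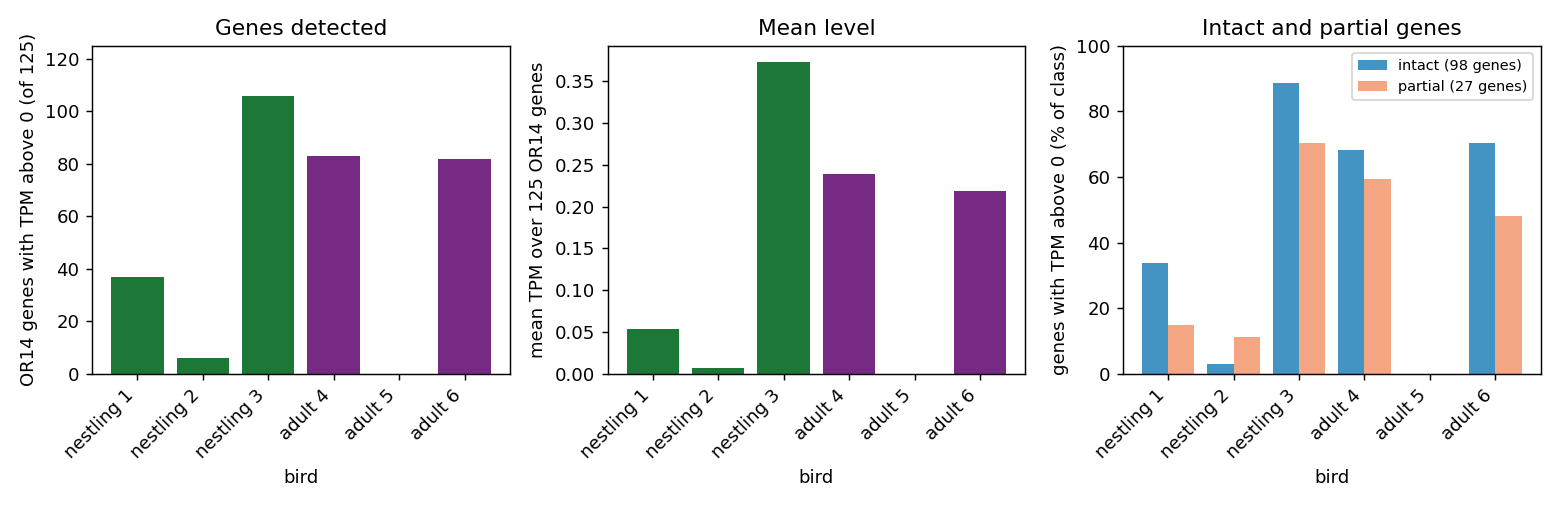
Number of OR14 genes with a TPM above 0 (left), mean TPM over all OR14 genes (middle) and percentage of the 98 intact and 27 partial genes with a TPM above 0 (right) in each bird; green bars are nestlings, purple bars adults, and a missing bar is a value of 0. Nestling 3 is highest with 106 genes and a mean of 0.374 TPM, adults 4 and 6 are alike, and adult 5 has no OR14 gene above 0.

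These levels rested on few reads. Read equivalents, which are the deposited coverage multiplied by coding length and divided by the read length of 150 bp, summed to 64.4, 8.01 and 614 over the OR14 genes in nestlings 1, 2 and 3 and to 298, 0 and 254 in adults 4, 5 and 6. Over all gene models they came to 10996511 to 16326012 per bird, and nestling 3 was the deepest library. The order of the birds differed from that of their depth, with 12612651 read equivalents in adult 5 and 10996511 in adult 6. Of all 16585 gene models, OR14 genes included, 13343, 13307 and 13982 were above 0 in nestlings 1, 2 and 3. In adults 4, 5 and 6 they numbered 13623, 13231 and 13522. By this count the birds stood in the same order as by OR14 genes detected. The part of depth or of general detection in the OR14 counts was not tested. Per 1000000 read equivalents, the OR14 genes took 37.6 in nestling 3 (exact 95% interval 34.7 to 40.7), 23.7 in adult 4 (21.1 to 26.5), 23.1 in adult 6 (20.3 to 26.1), 5.39 in nestling 1 (4.15 to 6.88) and 0.705 in nestling 2 (0.304 to 1.39). For the value of 0 in adult 5 the exact upper limit was 0.292, and the share of 3 counts was 0.238 per 1000000. The interval of nestling 3 lay above those of adults 4 and 6, which overlapped each other. These intervals cover counting error only and take the mates of a read pair as separate counts. They also leave out that the genes were listed for expression in these same libraries, so they cannot settle whether nestling 3 lay above the adults. Among them, 13 were detected in nestling 3 alone, 8 in adult 4 alone and 2 in adult 6 alone. For a gene of the median intact coding length, 1 read equivalent was worth 0.0691 to 0.0983 TPM, and of 314 values above 0, 51 stood for less than 1 read equivalent. In 45 genes no bird reached 3 read equivalents, and in 22 genes a bird reached 10 or more.

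Markers of the tissue differed between the same birds. *CNGB1*, which encodes a subunit of the cyclic nucleotide-gated channel that olfactory neurons open after odorant binding in the mouse, was at 0.787, 0.480 and 3.66 TPM in nestlings 1, 2 and 3 and at 1.53, 0.337 and 2.48 TPM in adults 4, 5 and 6. The 3 birds with most OR14 genes were also the 3 with most *CNGB1*, and adult 5 was lowest in both. *SLC24A4*, which encodes an ion exchanger that ends the odour response in the mouse, did not follow this order, with 1.09, 0.848 and 1.00 TPM in nestlings and 0.481, 0.322 and 1.10 TPM in adults. These were 2 of the 11 olfactory neuron markers looked for that the tables of the study pair with an identifier, so the check of the neurons is thin. *SOX2*, a transcription factor of supporting and basal cells, was at 101 to 163 TPM in 5 birds and at 11.5 TPM in adult 5. *AQP5*, a water channel of gland cells, was at 179 to 250 TPM in those 5 birds and at 25.3 TPM in adult 5. The 4 markers of supporting, basal and gland cells summed to 320 to 374 TPM in nestlings and 40.7 to 393 TPM in adults, and the 7 cilia genes to 121 to 231 TPM and 76.4 to 195 TPM. *PAX6*, a transcription factor of the same cells, was at 3.46 to 9.42 TPM in the other birds and at 0.332 TPM in adult 5, whereas *HES5*, a Notch target of progenitor cells, was at 3.67 TPM in adult 5, above nestling 2 (3.06 TPM) and adult 6 (3.29 TPM). Adult 5 was thus lowest in *SOX2*, *PAX6* and *AQP5* but not in *HES5*, and was lowest in the cilia genes other than *TTC8*, which was at 15.7 TPM both there and in nestling 1. Of 25 photoreceptor genes, 4 were listed at 0 in every bird, namely *GNAT1*, *CNGA1*, *PDC* and *PRPH2*. The summed levels were 151 to 249 TPM in nestlings and 210 to 412 TPM in adults. A single gene, *GNGT2*, made up most of this sum in every bird, with 201, 111 and 154 TPM in nestlings and 159, 269 and 339 TPM in adults. The 8 lens genes summed to 14.4 to 24.4 TPM in nestlings and 9.75 to 28.8 TPM in adults. In whole tissue, fewer neurons and less RNA per neuron cannot be told apart, and the part of cell composition in the OR14 levels was not tested.

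**Figure D2:**
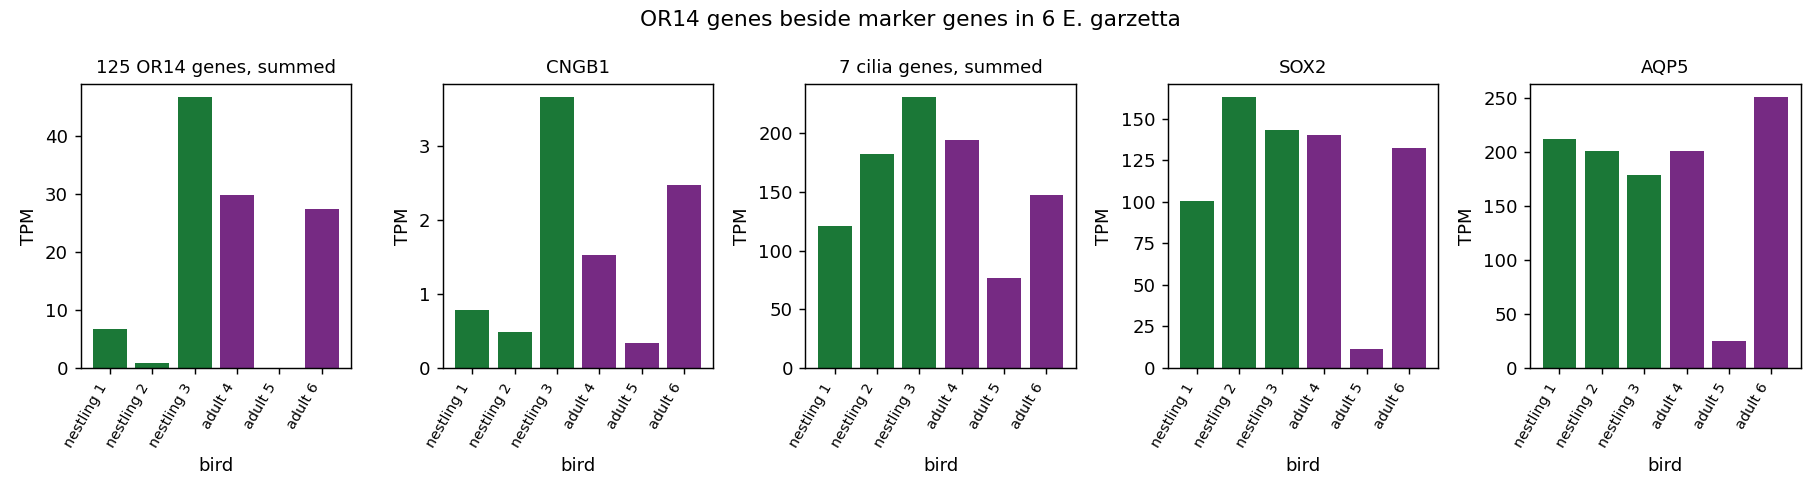
Summed TPM of the OR14 genes and TPM of *CNGB1*, of 7 cilia genes (summed), of *SOX2* and of *AQP5* in each bird, with a linear axis from 0 in each panel; green bars are nestlings and purple bars adults. Adult 5 is lowest in all 5 panels, and *CNGB1* is highest in nestling 3 with 3.66 TPM. Not shown are *HES5*, in which adult 5 is not lowest, and *SLC24A4*, which does not follow the order of the OR14 genes.

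The OR14 genes were tested one by one between nestlings and adults with limma on log2(TPM + 0.1), fitted to the 14960 genes whose mean reached 0.02 TPM. This filter kept 113 OR14 genes and left out 12. After Benjamini-Hochberg adjustment over all tested genes, 0 of the 113 were called at 0.05, against 0% of all genes. At an unadjusted p under 0.05 they were also 0 of 113, against 2.33% of all genes. No OR14 gene had every nestling above every adult, which held for 5.64% of all genes, and none had every adult above every nestling, which held for 1.89%. With adult 5 at 0 for all OR14 genes, the latter could not occur, and the former needed a gene detected in both nestlings 1 and 2, which held for 1 OR14 gene, so these counts say little. Without adult 5, again 0 OR14 genes were called, and 4 of 116 tested had an unadjusted p under 0.05, against 2.18% of all genes in that fit. The median log2 difference, nestling minus adult, was -0.05 for the OR14 genes and 0.14 for all tested genes, with 54 OR14 genes above 0 and 59 below. The share higher in nestlings was thus 47.8% of the tested OR14 genes, against 64.2% of all tested genes, and these shares were not compared by a test.

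The OR14 genes with the smallest p in each direction show how the birds within a stage spread. Ega_R014587, a partial gene of 279 bp on scaffold 698 (28932 to 29210), was at 0 in the 3 nestlings and in adult 5 and at 0.557 and 0.795 TPM in adults 4 and 6. Its log2 difference was -1.96 with a standard error of 0.89 (limma, adjusted p = 0.965), and the values stood for 2 and 2.64 read equivalents. Ega_R000442, a partial gene of 267 bp alone on scaffold 1067, had the same pattern, with 0.291 and 0.390 TPM in adults 4 and 6 and 0 elsewhere. Ega_R011566, on scaffold 483, was at 0.124 TPM in nestling 3 and at 0.749 and 0.236 TPM in adults 4 and 6. Both groups overlapped in each of these genes because adult 5 was at 0. In the other direction, Ega_R014957 on scaffold 726 was at 0.300 and 1.07 TPM in nestlings 2 and 3 and at 0.178 TPM in adult 6, with a log2 difference of 1.36 and a standard error of 0.97 (limma, adjusted p = 0.965). Ega_R012930 on scaffold 562 was at 0.615, 0 and 0.157 TPM in the nestlings and at 0.0300 TPM in adult 4. Ega_R003451, alone on scaffold 1783, was at 0.195, 0 and 0.362 TPM in the nestlings and at 0.0633 TPM in adult 6. Nestling 2 was at 0 for the last 2 genes and nestling 1 for the first, so none of the 3 was present in every nestling.

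The level of single OR14 genes was low throughout. The mean over the 6 birds ran from 0.00219 to 0.638 TPM with a median of 0.104 TPM. In the birds with any OR14 gene above 0, the median of those above 0 was 0.0980 to 0.381 TPM. The median of all gene models above 0 in a bird was 15.6 to 20.8 TPM. The mean reached 0.3 TPM in 18 genes and stayed under 0.05 TPM in 33. Only 12 genes reached 1 TPM in any bird. Ega_R011519, an intact gene on scaffold 475 (10241 to 11116, plus strand), had the highest mean, with 0, 0 and 1.03 TPM in nestlings and 2.26, 0 and 0.539 TPM in adults. Its value in adult 4, which stood for 25.5 read equivalents, was the highest of any OR14 gene in any bird. Its only listed neighbour on the scaffold, Ega_R011520, had a mean of 0.0202 TPM, so high and low members stood side by side. Ega_R015322, an intact gene alone on scaffold 789 (978 to 1634), was at 0.199, 0 and 0.982 TPM in nestlings and 1.72, 0 and 0.876 TPM in adults. It was the 1 gene that was among the 10 highest in nestling 3 and in adults 4 and 6 alike. They were followed by 2 partial genes. Ega_R002818 (285 bp, scaffold 1599) was at 0.339, 0 and 1.37 TPM in nestlings and 0.598, 0 and 1.44 TPM in adults. Ega_R004293 (297 bp, scaffold 2088) was at 0.272, 0 and 1.19 TPM in nestlings and 0.848, 0 and 0.487 TPM in adults. Since these models are short, their highest values stood for only 6.34 and 5.75 read equivalents.

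The next 4 genes by mean were intact. Ega_R016024 on scaffold 881 was at 0, 0 and 0.778 TPM in nestlings and 1.10, 0 and 0.726 TPM in adults. Ega_R015711, alone on scaffold 826, was at 0.470, 0 and 1.50 TPM in nestlings and 0.373, 0 and 0.202 TPM in adults, and it was the highest OR14 gene of nestling 3. Ega_R016561 on scaffold 99 was at 0.196, 0 and 0.851 TPM in nestlings and 0.951, 0 and 0.384 TPM in adults. Ega_R012936 on scaffold 562 was at 0, 0 and 0.485 TPM in nestlings and 1.42, 0 and 0.266 TPM in adults. In all 8 genes nestling 2 and adult 5 were at 0, and the bird with the highest value was nestling 3, adult 4 or adult 6.

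**Figure D3:**
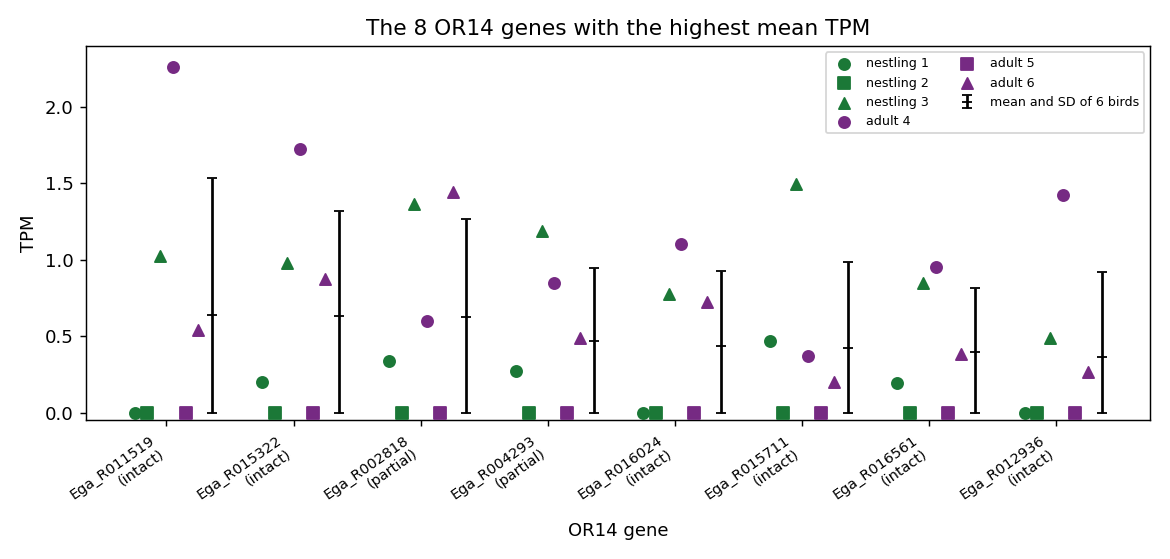
TPM of the 8 OR14 genes with the highest mean in each of the 6 birds (green, nestlings; purple, adults; the symbol marks the bird), with the mean and SD of the 6 birds in black and the lower ends of the SD bars cut at 0. Ega_R011519 reaches 2.26 TPM in adult 4, and nestling 2 and adult 5 are at 0 for every gene shown.

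The highest gene was another one in each bird with OR14 transcripts: Ega_R012930 in nestling 1 (0.615 TPM), Ega_R014957 in nestling 2 (0.300 TPM), Ega_R015711 in nestling 3 (1.50 TPM), Ega_R011519 in adult 4 (2.26 TPM) and Ega_R002818 in adult 6 (1.44 TPM). In nestlings 1 and 2 these values stood for only 3.81 and 3.09 read equivalents. The next gene of nestling 2, Ega_R011525, stood for 3, so which gene is highest there is not settled. The 10 highest genes of nestling 3, adult 4 and adult 6 made up 24 genes, of which 19 were among the 10 highest in a single bird of the 3. The OR14 transcripts were spread over many genes, and the 10 highest carried 23.7% of the summed TPM in nestling 3, 38.9% in adult 4, 33.4% in adult 6 and 52.2% in nestling 1. Nestling 3 gave the highest value for 66 genes, adult 4 for 27, adult 6 for 26, nestling 1 for 4 and nestling 2 for 2.

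By number of birds, 26 genes were detected in 1 bird, 35 in 2, 39 in 3, 24 in 4 and 1 in 5, and none in all 6. Ega_R011525, an intact gene on scaffold 477 (8866 to 9765), was the one found in 5 birds, with 0.0695, 0.291 and 0.408 TPM in nestlings and 0.568, 0 and 0.216 TPM in adults. Nestling 3, adult 4 and adult 6 had 54 genes in common, and 16 genes had at least 3 read equivalents in each of the 3. Of the 37 genes of nestling 1, 33 were detected in nestling 3 (89.2% of the genes of nestling 1 and 31.1% of those of nestling 3) and 33 in adult 6. Adults 4 and 6 shared 58 genes, which were 69.9% and 70.7% of their genes. Of all OR14 genes, 84.8% were detected in nestling 3, 66.4% in adult 4 and 65.6% in adult 6. The overlap of nestling 1 with nestling 3 and that of adults 4 and 6 thus lay near the share of any OR14 genes. So did that of nestling 1 with adult 4, which was 26 of 37 genes (70.3%) against 66.4%. For nestling 1 and adult 6 the 89.2% lay above the 65.6% of adult 6. Of the 37 genes of nestling 1, 33 were intact, a class of which adult 6 detected 70.4%. In nestling 1, 11 of the 37 stood for less than 1 read equivalent. This overlap was picked out from several that were looked at and was not tested. Only 3 genes were missing from all 3 high birds: Ega_R001199 and Ega_R000333, seen in nestling 1 at 0.137 and 0.0207 TPM, and Ega_R000438, seen in nestling 2 at 0.0321 TPM. These 3 were named after their values were seen. By stage, 93 genes were detected in both, 18 in nestlings alone and 14 in adults alone, and of the latter 2 sets only 2 and 4 genes were found in more than 1 bird. The same shares over all gene models are not given here, so these counts are not read as a difference between stages. Without nestling 3, the number detected in nestlings went from 111 to 42. In the median gene the SD over the 6 birds was 1.58 times the mean, and it was 0.797 to 2.45 times the mean over all genes, where the upper end is the value of any gene found in 1 bird.

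**Figure D4:**
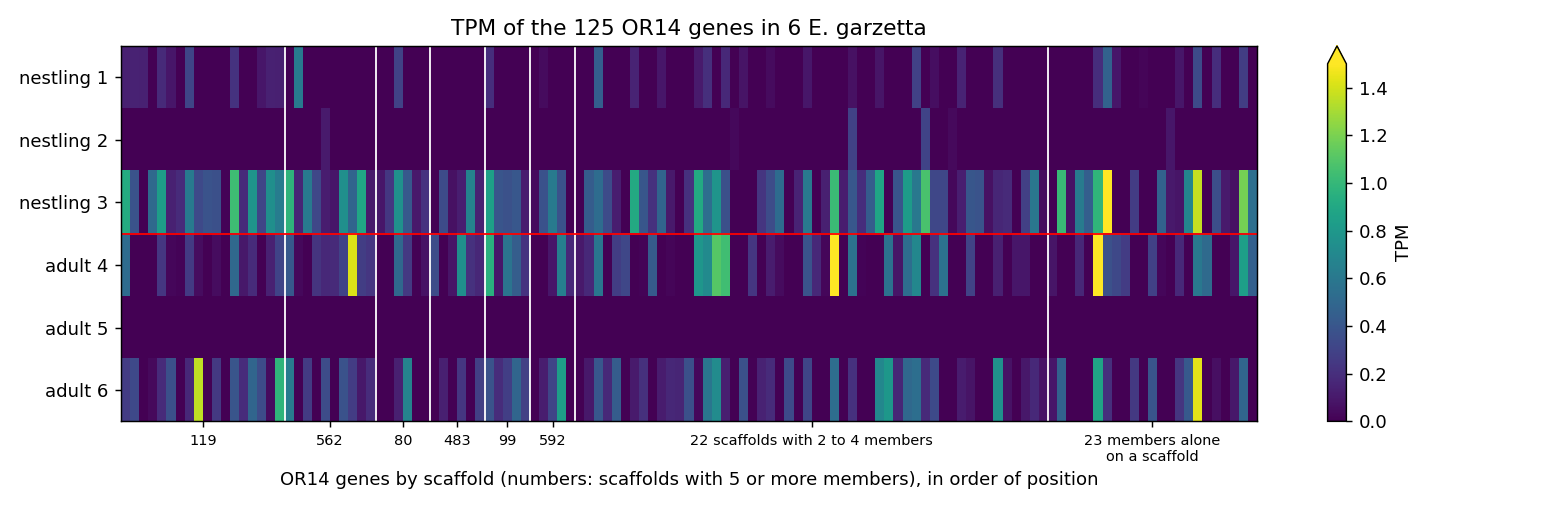
TPM (colour, linear scale, values above 1.5 in the top colour) of the OR14 genes in columns and the 6 birds in rows, with nestlings above the red line and adults below it; white lines part the 6 scaffolds with 5 or more OR14 genes, the 22 scaffolds with 2 to 4 and the 23 genes alone on a scaffold. Nestling 3, adult 4 and adult 6 carry most of the signal, with different genes bright in each, and adult 5 is at 0 throughout.

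The genes lay on 51 scaffolds of the genome used by the authors, numbered as in the files, with 62 on the plus and 63 on the minus strand. There were 6 scaffolds with 5 or more OR14 genes, called clusters here, which held 50 genes, 22 scaffolds with 2 to 4, which held 52, and 23 genes alone on a scaffold. In 15 of these 23 cases the scaffold held no other gene model, and neighbours beyond scaffold ends were not analysed here. The supplementary table and the files differ in the scaffold of 2 genes, Ega_R011526 and Ega_R011562, and the scaffolds of the files (477 and 483) were used.

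The largest cluster, on scaffold 119 from 40407 to 322825, held 18 OR14 genes, 6 on the plus and 12 on the minus strand. Of these, 10, 0 and 17 were detected in nestlings 1, 2 and 3. The adults 4, 5 and 6 had 12, 0 and 14 of them. Its highest gene by mean was Ega_R001210 (187302 to 188222), with 0.219, 0 and 1.03 TPM in nestlings and 0.509, 0 and 0.393 TPM in adults. Its lowest was the neighbouring partial gene Ega_R001209 (249 bp, 182849 to 183097), with 0.0132 TPM in nestling 3 alone, far below 1 read equivalent. Scaffold 119 held 14.4% of the OR14 genes and 23.8% of the summed OR14 TPM in nestling 1, 17.9% in nestling 3, 19.8% in adult 6 and 8.01% in adult 4. Adults 4 and 6, with almost the same OR14 mean, thus differed in the share of this cluster, which rested on 26.4 and 53.7 read equivalents. Between its OR14 genes lay 6 other gene models. One was Ega_R001208, a partial OR that the table lists as Olfr867, at 0.197 TPM in nestling 3 and 0.335 TPM in adult 6. The 2 unlisted models Ega_R001197 and Ega_R001214 were above 0 in 6 and 5 birds, among them nestling 2, in which no OR14 gene of the scaffold was detected.

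Scaffold 562, from 13349 to 124857, carried 10 gene models and all were OR14 genes. All 10 were detected in nestling 3, 9 in adult 4, 7 in adult 6, and 1 each in nestlings 1 and 2. Ega_R012936, described above, was its highest gene, and Ega_R012934 (77275 to 78030) its lowest, with 0.0905 TPM in nestling 3 and 0.177 TPM in adult 4. The 1 gene of this scaffold found in nestling 1 was the partial gene Ega_R012930, the highest OR14 gene of that bird, while its neighbours on both sides were at 0 there. The whole array had 3.81 read equivalents in nestling 1 and 61.7 in nestling 3, so a difference along it between these birds rests on few reads and was not tested.

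**Figure D5:**
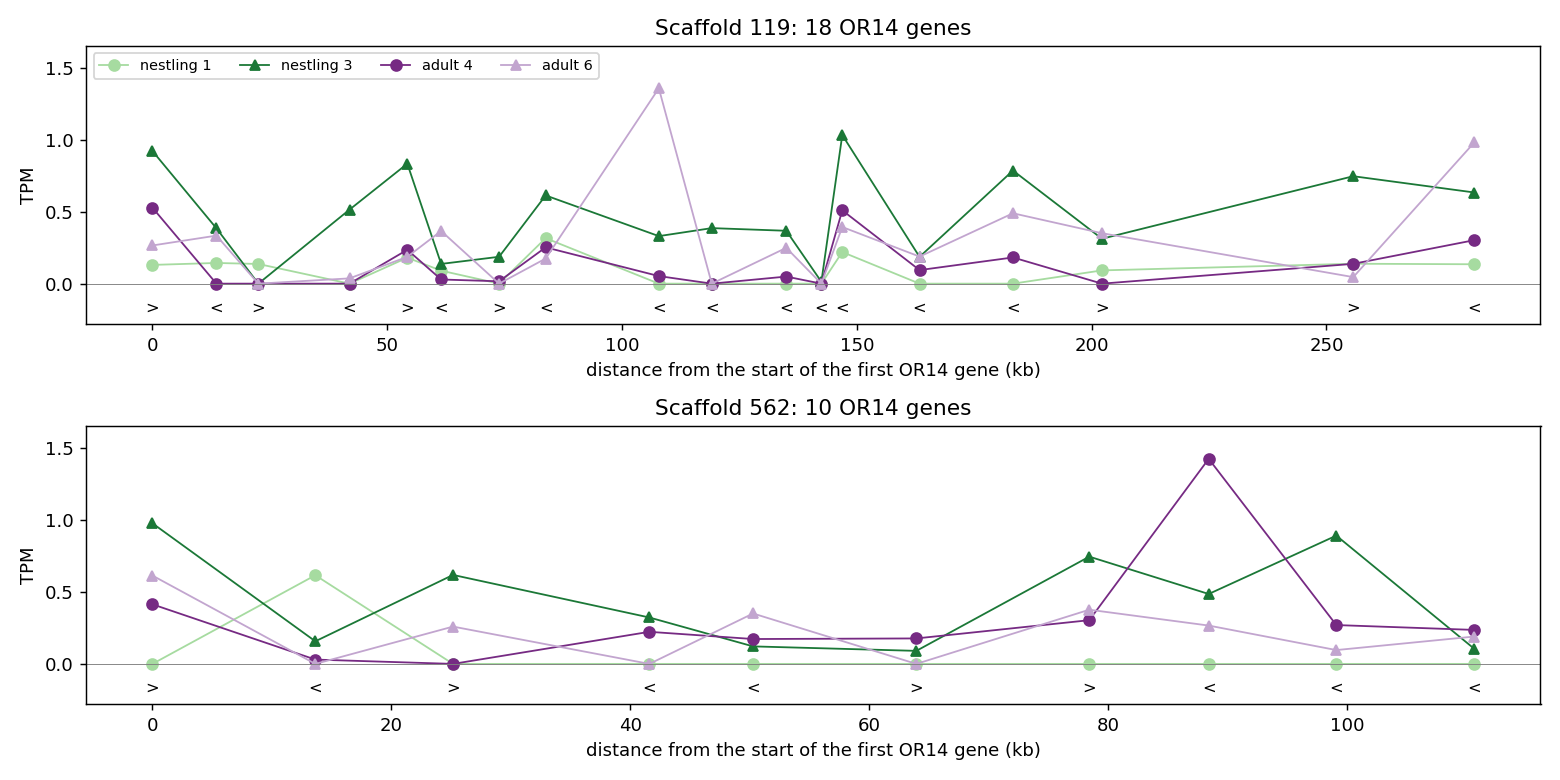
TPM of the OR14 genes along the clusters on scaffolds 119 (top, 18 genes) and 562 (bottom, 10 genes) by distance in kb from the start of the first OR14 gene, in nestlings 1 and 3 and adults 4 and 6; arrowheads under the points give the strand, and nestling 2 and adult 5 are left out (at most 1 gene detected). High genes stand next to genes at or near 0, and the highest gene differs between birds.

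The other 4 clusters were smaller. On scaffold 80 (1230 to 116050), where all 6 gene models were OR14 genes, Ega_R015560 was highest, with 0.297, 0 and 0.759 TPM in nestlings and 0.508, 0 and 0.130 TPM in adults, and Ega_R015558 was lowest, with 0.0890 TPM in nestling 3 alone. On scaffold 483 (3416 to 74891) none of the 6 OR14 genes was detected in nestlings 1 and 2; the highest was Ega_R011566, given above, and the lowest Ega_R011565, with 0.0676 TPM in nestling 3 and 0.0855 TPM in adult 4. On scaffold 99 (32548 to 108393) all 5 genes were detected in nestling 3, adult 4 and adult 6, which no other cluster showed, and Ega_R016561 and Ega_R016566 were highest and lowest with means of 0.397 and 0.103 TPM. On scaffold 592 (5031 to 74045) all 5 genes were on the plus strand. Its highest gene, Ega_R013404, was at 0.378 TPM in nestling 3 and at 0.654 and 0.840 TPM in adults 4 and 6, and its lowest, Ega_R013400, at 0.0413 TPM in nestling 3 alone. Over the 6 clusters, 10 other gene models lay between the OR14 genes, 9 of them not listed as ORs, and 5 of these 9 were at 0 in every bird.

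The difference in level between genes in clusters and genes alone on a scaffold was within the spread of the birds. The mean over the 50 cluster genes was 0.0547, 0.00213 and 0.392 TPM in nestlings 1, 2 and 3 and 0.225, 0 and 0.238 TPM in adults 4, 5 and 6. Over the 23 genes alone it was 0.0728, 0.00390 and 0.430 TPM in nestlings and 0.258, 0 and 0.218 TPM in adults. The difference, cluster minus alone, was -0.0119 ± 0.0223 TPM (SD, n = 6), with 4 birds below 0, 1 above 0 and adult 5 at 0. Detection was more frequent in clusters in the 3 high birds: 94% against 73.9% of the genes in nestling 3, 76% against 60.9% in adult 4 and 68% against 52.2% in adult 6. In nestlings 1 and 2 it was 28% against 34.8% and 2% against 4.35%. Of the 52 genes on scaffolds with 2 to 4, 80.8% were detected in nestling 3, 59.6% in adult 4 and 69.2% in adult 6. They lay below the genes alone in adult 4 and above the clusters in adult 6, so detection did not rise evenly with the number of genes. Partial genes, which were detected less often in most birds, made up 8 of the 23 genes alone (34.8%) and 8 of the 50 in clusters (16%). Among intact genes, a split chosen after seeing the data, detection in clusters against alone was 95.2% and 80% in nestling 3, 76.2% and 66.7% in adult 4, and 71.4% and 60% in adult 6, over 42 and 15 genes. In nestling 1 it went the other way, with 31.0% and 33.3%, and in nestling 2 it was 2.38% and 0%.

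Neighbours, meaning OR14 genes that follow each other on a scaffold, formed 74 pairs with a median distance of 12467 bases. Both genes of a pair were detected in 60 pairs (81.1%) in nestling 3, 36 (48.6%) in adult 4, 35 (47.3%) in adult 6 and 5 (6.76%) in nestling 1. Over the 7462 pairs on different scaffolds the shares were 71.3%, 43.6%, 42.5% and 8.31% in the same birds. In nestling 2 it was 0% of neighbours and 0.201% of pairs on different scaffolds, and in adult 5 both shares were 0. The share of neighbours was thus the higher one in the 3 high birds and the lower one in nestlings 1 and 2. It averaged 2.98 percentage points more over the 6 birds. These pairs share genes, and genes alone on a scaffold enter only the second share, so no test was made. The difference in level within a pair was of similar size in both kinds of pair: the median absolute difference on the log2(TPM + 0.1) scale was 1.14 for neighbours and 1.15 for pairs on different scaffolds in nestling 3, 1.09 and 1.20 in adult 4, and 1.20 and 1.16 in adult 6. Pairs on the same strand (33) and on opposite strands (41) were both detected in 84.8% and 78.0% of cases in nestling 3, 45.5% and 51.2% in adult 4, and 45.5% and 48.8% in adult 6. For pairs under 20000 bases apart (59) and farther apart (15) it was 83.1% and 73.3% in nestling 3, 54.2% and 26.7% in adult 4, and 49.2% and 40% in adult 6. Nestling 1 went the other way, with 5.08% and 13.3%. No 2 OR14 genes had equal values in every bird.

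Intact OR14 genes, meaning those with a transcript length in the supplementary table, numbered 98, and 27 carried its partial mark, given where a start or stop codon was missing. The coding length was 657 to 930 bp in the intact and 249 to 895 bp in the partial genes, with medians of 888.5 and 450 bp. Of the intact genes, 20 had more than 1 exon or a coding length that was not a multiple of 3, so that this class may hold genes without an open reading frame. The study counts fewer intact OR14 genes in the genome of this species, so the class used here is wider than its intact count. Intact genes averaged 0.0551, 0.00712 and 0.412 TPM in nestlings 1, 2 and 3 and 0.253, 0 and 0.227 TPM in adults 4, 5 and 6. Partial genes averaged 0.0462, 0.00594 and 0.235 TPM in nestlings and 0.185, 0 and 0.189 TPM in adults. Intact genes were higher in all 5 birds with OR14 transcripts, by 0.00118 TPM in nestling 2 to 0.177 TPM in nestling 3. The mean difference of 0.0490 ± 0.0681 TPM (SD, n = 6) was smaller than its SD and was 0.0234 TPM without nestling 3. The differences were largest in the high birds, and adult 5 entered at 0 because both classes were at 0. This SD therefore also holds the spread in OR14 level and says little about the direction within birds. Partial genes made up 21.6% of the OR14 genes and 13.6% to 18.8% of the summed TPM in these 5 birds.

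Detection differed in the same direction in 4 of these 5 birds. In nestling 3, 88.8% of the intact and 70.4% of the partial genes were above 0, in adult 6 70.4% and 48.1%, in adult 4 68.4% and 59.3%, and in nestling 1 33.7% and 14.8%. In nestling 2, with 3 genes of each class, it was 3.06% and 11.1%, but its partial genes summed to only 0.847 read equivalents. At 1 read equivalent or more the shares of nestling 2 were 3.06% and 0%. At that limit intact genes were detected more often in all 5 birds. A longer gene catches more reads at the same TPM, and the classes differ in length by construction, so the part of length in this difference was not tested. Among genes above 0, the median TPM was 0.399 for intact and 0.180 for partial genes in nestling 3, but 0.236 and 0.253 in adult 4, and 0.259 and 0.283 in adult 6. The highest intact and partial genes by mean were Ega_R011519 and Ega_R002818, at 0.638 and 0.624 TPM.

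Of the models, 113 had a single exon, 11 had 2 and 1 had 3. In 5 of these 12 models the exons lay under 30 bases apart, and the shortest gap was 5 bases. Coverage often fell on a single exon of a model. In Ega_R014750 (scaffold 700, mean 0.354 TPM) exon 1, which is 138 bp long, was at 0 in every bird, while exon 2 reached a coverage of 1.73 in nestling 3. In Ega_R012936 exon 1 had a coverage of 4.61 in adult 4 and exon 2 of 0.501. These 2 models were named here after their values were seen. A TPM for such a model is an average over exons that were not covered alike.

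There were 3 models that spanned over 10000 bases. Ega_R014111 (scaffold 648, 630 to 15746) was detected in nestling 3 alone, at 0.437 TPM, with a coverage of 1.20 on exon 1 and 0.872 on exon 2. Ega_R016565 (scaffold 99, 69952 to 108393) was at 0.408, 0.440 and 0.490 TPM in nestling 3, adult 4 and adult 6, but exon 1 was covered in nestling 3 only (0.907), and exon 2 in all 3 birds (1.04, 1.26 and 1.30). Ega_R015738 (scaffold 830, 15823 to 52864, 3 exons) was detected in adult 4 alone, at 0.317 TPM, with exon 2 at 0. The introns of the last 2 models hold other OR14 genes on the opposite strand: Ega_R016566 lies within Ega_R016565, and Ega_R015739 and Ega_R015740 within Ega_R015738. No exons of these models overlapped. Ega_R015739 was at 0.147, 0 and 0.913 TPM in nestlings and 0, 0 and 0.111 TPM in adults, and so was at 0 in adult 4, the 1 bird in which the model around it was detected. Ega_R015740 was at 0, 0 and 0.401 TPM in nestlings and 0.0170, 0 and 0.208 TPM in adults, and so was above 0 in adult 4, at well under 1 read equivalent. Ega_R016566 was at 0.115, 0.219 and 0.283 TPM in nestling 3, adult 4 and adult 6, the same birds as Ega_R016565.

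The 7 listed ORs outside OR14 give a measure of other receptors in the same libraries. Their mean was 0.0663, 0.0748 and 0.158 TPM in nestlings 1, 2 and 3. It was 0.173, 0.217 and 0.185 TPM in adults 4, 5 and 6, so adult 5 was highest where the OR14 genes were at 0. This rested on a single gene, the OR51 gene Ega_R014141, a class I receptor, which was at 0, 0.287 and 0.430 TPM in nestlings and 0.827, 1.52 and 0.700 TPM in adults and was the only listed OR detected in adult 5. The difference between the families in the order of the birds was not tested.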

How the data were processed

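OE libraries of 6 *E. garzetta* were read as 150 bp pairs. Per the labels and file headers, the authors used Trimmomatic for trimming, HISAT2 for mapping and StringTie 2.1.4 for quantification of the annotated gene models, bird by bird. Versions of Trimmomatic and HISAT2 are not given in the sources used here. In each bird the deposited TPM sum to 1000000. The deposited FPKM were not used. The deposited coverage, a signal per base, gave the read equivalents. The kit named in the labels keeps no strand.

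OR14 identity and the partial mark came from the supplementary OR table and marker symbols from the gene table of the study, with none of their values. Members, marker lists, tests and the rule for named genes were chosen with earlier results of these data known. The rule took the 8 highest means, genes detected in 5 or more birds, the highest gene in each bird, the 3 smallest p in each direction, the highest intact and partial gene, the highest and lowest gene of each scaffold with 5 or more members, models over 10000 bases and pairs with equal values.

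Stages were compared by lmFit and eBayes (with trend) of limma 3.58.1, under R 4.3.3, on log2(TPM + 0.1), which understates changes of low genes, with Benjamini-Hochberg adjustment over 14960 genes. The script was tested on simulated data. Changes were put only into genes above the level of every OR14 gene, so that test does not show which change of an OR14 gene would be found. Shares of reads have exact (Clopper-Pearson) 95% intervals. The p-values measure the spread between birds. Other numbers were computed with Python 3.11.15, pandas 2.3.3 and scipy 1.17.1. Alternatives were other pseudocounts, filters and detection limits, no trend, rescaling by the median ratio, other class limits and leaving out each bird.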

Additional observations from a re-analysis of the deposited data

How the results depend on the processing

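The count of 0 OR14 genes called between stages was 0 under all 12 alternatives, with as few as 66 genes tested. At an unadjusted p under 0.05 the count was 4 of 116 tested without adult 5, against 2.18% of all genes. It was 1 of 115 without nestling 1 (2.69% of all genes) and 1 of 116 without nestling 2 (1.43%). It was 0 of 96 without nestling 3 (1.57%), 0 of 104 without adult 4 (7.2%) and 0 of 111 without adult 6 (4.63%). Of all genes, 1 was called after adjustment without nestling 1, and it was no OR14 gene. Rescaling the birds by the median ratio moved the median log2 difference of all genes from 0.14 to 0.02 and that of the OR14 genes from -0.05 to -0.06. The OR14 median was 0.01 with a pseudocount of 1 TPM or without the filter, -0.27 with a pseudocount of 0.01 TPM, -0.70 without nestling 3 and 0.42 without nestling 2, so its sign is not settled. Nestlings minus adults was -5.33 detected genes, -3.67 at 1 read equivalent or more, -2.67 at 0.1 TPM or more and 4 at 3 read equivalents or more, and -33.5 to 16.5 when a bird was left out. For the mean TPM it was -0.00783, -0.0149 after rescaling, 0.0370 for the median gene, and -0.122 to 0.0610 when a bird was left out. The difference of intact and partial genes was 0.0448 TPM when split at a coding length of 650 bp, 0.0440 TPM when intact meant 1 exon, over 650 bp and a coding length that is a multiple of 3 (chosen after seeing the data), and 0.0234 to 0.0588 TPM without single birds. The excess of neighbours detected together was 3.16 percentage points at 1 read equivalent or more and 1.61 to 3.88 without single birds. Cluster minus alone was -0.0184 to -0.00667 TPM without single birds. No paired analysis was possible because nestlings are numbered 1 to 3 and adults 4 to 6, so the stages share no number. Depth limits single genes most: 3 read equivalents were 0.207 to 0.295 TPM for an intact gene of median length and 0.409 to 0.582 TPM for a partial one.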
